A study of Mus musculus and Homo sapiens with 7 samples.

Results

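Nsun4 and Ptcd1 encode mitochondrial RNA factors that were targeted in a pooled CRISPR/Cas9 knockout screen, and all 30 guides listed under these symbols were taken, of 10021 guides in the screen. The screen was run in B16-F10 cells, a mouse melanoma line. The cells expressed Cas9 from a lentiviral vector and were sorted by fluorescence. They then received the guide library and were kept in 2 µg/mL puromycin for 7 days, followed by 48 h in galactose or glucose medium. The groups were dead cells from galactose medium (3 libraries, called dead a, b and c) and living cells from glucose medium (2 libraries, called living a and b), with guides amplified from 5 µg of genomic DNA. Medium and cell state changed together, so their parts cannot be told apart. The letters follow the place of a value in the deposited table, which carries no replicate number. Separate cultures are not named in the labels. The p-values therefore reflect library-to-library spread, which may be technical.

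NSUN4 is an RNA methyltransferase of the mitochondrial matrix. It methylates the 12S rRNA of the small mitochondrial ribosomal subunit and, bound to MTERF4, takes part in joining the subunits into a ribosome. PTCD1 is a pentatricopeptide repeat protein of the matrix that binds mitochondrial RNA, and work in human cells ties it to leucine tRNAs and to the 16S rRNA of the large subunit. Both are needed for the synthesis of the respiratory chain subunits encoded in mitochondrial DNA, on which cells lean more when galactose replaces glucose. In such a screen, a guide that is more frequent among dead galactose cells than among living glucose cells marks a gene whose loss could go with death in galactose.

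Neither gene passed the limma test, which called 0% of the 915 genes tested. The Nsun4 guides fell into sets under 2 Ensembl identifiers, and under ENSMUSG00000028706 a single dead library, b, was the highest of the 5 libraries for every tested guide. The most abundant guide of that set, 148447, was 6.30-fold higher in dead than in living cells, or 3.27-fold without dead library b. For Ptcd1, 2 rare guides with 0 or 1 read in each living library had 3 to 120 reads in the dead libraries, while the most abundant guide was lower in all dead libraries. Guides are called by the serial number in their deposited names. Their sequences are not used here.

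Values are normalised guide counts, which give a guide's share of its library and not a number of cells. The dead libraries held 13275792 to 15591466 reads and the living ones 6801049 and 8492138. A single read was worth 0.761 to 0.863 normalised counts in dead libraries, and 1.57 and 1.25 in living libraries a and b. Reads carry no molecular identifiers, so floors on counts cover counting error only. A guide is called tested if its mean over the 5 libraries was at least 10, which 7248 guides reached. Of the 30 guides, 23 were tested, 4 were at 0 in all libraries and 3 were under the filter. At a floor of 3 reads, a guide at 0 could have had up to 2.28 to 2.59 normalised counts in a dead library and 4.71 and 3.74 in the living ones. Of all guides, 22.4% were at 0 throughout.

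Nsun4 had 20 guides in the table where most genes had 10, since 10 carried the identifier ENSMUSG00000028706 and 10 the identifier ENSMUSG00000090697. Trappc13 was the only other of 929 gene symbols with 2 identifiers. Whether guides of the 2 sets cut the same sites is not given in the sources used here, so the sets are described apart.

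In the order a, b, c for dead and a, b for living libraries, as in all that follows, guide 148447 of ENSMUSG00000028706 had 3805, 15174 and 4208 normalised counts in the dead libraries, against 1232 and 1221 in living libraries a and b. The groups did not overlap, and the mean was 7729 ± 6451 in dead cells (SD, n = 3) against 1226 ± 7.71 in living cells (SD, n = 2). Even the lowest dead library was well above both living ones, but dead library b stood apart from the other two. Changes below are on the scale of log2(normalised count + 1), except those by edgeR and the authors' deposited values, which are log2 fold changes. On the first scale the change of guide 148447 was 2.35 ± 0.70 (SE), with an adjusted p of 0.603 by limma over all 7248 tested guides. By edgeR on its reads, 5001, 17587 and 5434 in dead libraries against 785 and 978 in living ones, the change was 2.68 with an adjusted p of 0.279.

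The library's own controls gave the setting for a guide this abundant. They were 375 guides with the gene entry none and 375 with the entry safe, entries that name no gene. Abundance was taken as the half-sum of the group means. Of the 246 control guides at 1000 and over, 0 had a change as high as that of guide 148447, and the highest stood at 1.39. Of the 2733 gene-targeting guides of that class, 2 did, counting the guide itself. The middle of the control guides lay near no change, with a median of 0.0139 and an SD of 0.454.

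Guide 148451, of the same set, had 573, 3615 and 42.6 normalised counts in the dead libraries, against 129 and 207 in living libraries a and b. Here the groups overlapped, since dead library c was below both living libraries while dead library b was far above them. The change was 1.45 ± 1.98 (SE, limma adjusted p = 0.790). Of 190 control guides of 100 to under 1000, 3 had a change at least as high.

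The other tested guides of ENSMUSG00000028706 had smaller changes in either direction. Guide 148446 had the largest change down of the tested Nsun4 guides, with 1016.5, 1078 and 177 normalised counts in the dead libraries, against 1007 and 962 in living ones. The low value was that of dead library c alone, and the change was −0.77 ± 0.92 (SE, limma adjusted p = 0.770). Guide 148443 had 421, 1097 and 545 normalised counts in the dead libraries, against 543 and 558 in living ones. Guide 148445 had 557, 1046 and 276 against 406 and 483. In both, dead library b was above the living values while 1 other dead library was below them. Guide 148444 had 97.4, 358 and 242 normalised counts in the dead libraries, against 62.8 and 170 in living ones, at a change of 0.97 ± 0.75 (SE, limma adjusted p = 0.668). Its living libraries lay far apart, and 10 of 190 control guides had a change at least as high.

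Of the rare guides of this set, 148450 had 33.5, 324 and 6.20 normalised counts in the dead libraries, against 47.1 and 18.7 in living ones. Guide 148449 had 1.52, 178 and 50.3 against 37.7 and 52.4. The 2 reads behind the value of 1.52 and the 206 behind that of 178 show how far the dead libraries of a rare guide lay apart. Guide 148448, under the filter, had 1.52, 0 and 35.6 normalised counts in the dead libraries against 0 and 1.25 in living ones, and guide 148452 was at 0 in all 5.

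Dead library b was the highest of the 5 libraries for 8 of 8 tested guides of ENSMUSG00000028706. The same library was the highest for 2 of 7 guides of ENSMUSG00000090697, for 5 of 8 guides of Ptcd1, for 25.7% of the 549 tested control guides and for 23.3% of the 6699 tested gene-targeting guides. The share varied with abundance. Among the dead libraries alone, b was highest for 40.0% of tested control guides of 10 to under 100. From 100 to under 1000 it was so for 39.5%, and at 1000 and over for 24.0%. Of 443 identifiers with at least 8 tested guides, 1 had all its guides highest in dead library b, and that was ENSMUSG00000028706. The mean log2 guide count of this set was 7.74, 10.03 and 7.33 in the dead libraries, against 7.73 and 7.92 in living libraries a and b. Dead library b thus exceeded the mean of the other dead libraries by 2.49, the largest such difference among 917 identifiers, whose median was −0.0588. These ranks were looked up after the pattern had been seen and carry no test.

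Summed over the 10 guides of ENSMUSG00000028706, the normalised counts were 6506, 22869 and 5584 in dead libraries, against 3464 and 3674 in living ones. Without guide 148447 the sums were 2701, 7695 and 1375 in dead libraries, against 2233 and 2453 in living ones. With this guide left out, dead library c was below both living libraries, while dead libraries a and b were above them. By limma the set's change was 0.54 ± 0.80 (SE, adjusted p = 0.864 over 917 identifiers). It turned to −0.29 without dead library b, and by edgeR on summed reads it was 1.67 (adjusted p = 0.232), or 0.69 without that library.

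The abundant guides of ENSMUSG00000090697 differed little across libraries, while its guides of 100 to under 1000 had a median span of 1.20 log2 units over the dead libraries, beside 1.06 in control guides. The most abundant, 58600, had 2394, 2224 and 2223.5 normalised counts in the dead libraries, against 2124 and 2594 in living ones, and the dead values lay between the living ones. Guide 58599 had 1267.5, 1497 and 1331 in dead libraries, against 1222 and 1070 in living ones, and guide 58605 had 778, 775 and 699 against 582 and 669. For these 2 of 7 guides all dead libraries were above both living ones, beside 15% of all tested guides, with changes of 0.25 ± 0.21 and 0.26 ± 0.20 (SE) with adjusted p of 0.680 and 0.665 by limma.

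Guide 58602 had 1087, 729 and 969.6 normalised counts in the dead libraries, against 733 and 883 in living ones. Guide 58603 had 780, 320 and 366 against 689 and 622, with dead library a above and dead libraries b and c below the living values. Guide 58606 had 254, 417 and 180 against 373 and 247. The changes of these guides were 0.19, −0.54 and −0.18, and that of guide 58604, at −0.70 ± 0.50 (SE), was the largest down among the tested guides of the set. Guide 58604 had 46.4, 89.7 and 132 normalised counts in the dead libraries, against 140 and 129 in living ones, and 45 of 190 control guides had a change at least as low. The rarest guides of the set had most of their counts in 1 dead library. Guide 58598, under the filter, had 38.8, 0 and 0 normalised counts in the dead libraries against 3.14 and 7.49 in living ones. Guide 58601 had 0, 0.863 and 13.9 against 7.84 and 1.25, and guide 58607 was at 0 throughout. The sums of the set were 6645, 6052 and 5915 in dead libraries, against 5874 and 6221 in living ones.

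The mean log2 guide count of this set was 9.20, 9.19 and 9.14 in dead libraries, against 9.30 and 9.26 in living ones. All dead libraries were below both living ones, which was so for 23.9% of all 915 genes tested, and the change of −0.11 ± 0.18 (SE, limma adjusted p = 0.864) was close to the median of all identifiers, −0.16. The log2 level of ENSMUSG00000028706 minus that of ENSMUSG00000090697 was −1.46, 0.84 and −1.81 in dead libraries, against −1.57 and −1.34 in living ones. The difference of the 2 sets in their change was 0.65, and it is given without a test, since the split by identifier was made after the data were seen.

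With both sets pooled under the symbol Nsun4, 15 guides entered the gene mean. It was 8.42, 9.64 and 8.17 in dead libraries, against 8.47 and 8.55 in living ones, so dead library b was above the living libraries and the other dead ones below. The change was 0.24 ± 0.45 (SE), a fold of 1.18 with a 95% interval from 0.543 to 2.56 (limma adjusted p = 0.876 over 915 genes). It was −0.21 without dead library b and −0.15 when guides were summarised by their median. By edgeR on summed reads it was 0.85 (adjusted p = 0.258), or 0.29 without dead library b. Of the 15 guides, 9 were higher and 6 lower, with a median change of 0.20, where 43.6% of all tested gene-targeting guides were higher and their median was −0.0910.

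Ptcd1, under ENSMUSG00000029624, had 10 guides, of which 8 were tested and 2, 33485 and 33486, were at 0 in all libraries. Its most abundant guide, 33482, had 3448, 3029 and 2796.5 normalised counts in the dead libraries, against 4227 and 4109 in living ones. All dead libraries were below both living ones, at a mean of 3091 ± 330 (SD, n = 3) against 4168 ± 83.1 (SD, n = 2). The change was −0.44 ± 0.21 (SE, limma adjusted p = 0.608), and 29 of 246 control guides of like abundance had a change at least as low. This guide held most of the counts of the gene, whose sums were 4497, 4991 and 4060 in dead libraries against 5333 and 5354 in living ones. Without it the sums were 1049, 1962 and 1263 against 1106 and 1245, which overlapped.

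Guide 33487 of Ptcd1 had 25.9, 104 and 2.32 normalised counts in the dead libraries, from 34, 120 and 3 reads, and was at 0 in both living libraries. Against a floor of 3 reads in each living library its mean was at least 10.4-fold higher in dead cells, or at least 3.34-fold without dead library b. In dead library c the guide was itself at 3 reads, below the living floors in normalised counts. The fitted change was 4.40 ± 1.54 (SE, limma adjusted p = 0.603), a value that depends on the pseudocount since the living level is 0.

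Guide 33488 stood at 80.6, 34.5 and 11.6 in the dead libraries, from 106, 40 and 15 reads, against 1.57 and 1.25 in living ones, each from 1 read. The groups did not overlap, and the change was 3.79 ± 0.85 (SE, limma adjusted p = 0.594). The living level rests on 2 reads in all. Both guides entered the class of 10 to under 100 through their dead counts, so they are set here beside control guides with a living mean under 10 that were not at 0 in all libraries. Of these 35 control guides, 0 had a change as high as either guide, the highest standing at 3.66. Such control guides were mostly higher in dead cells too, 28 against 7, with a median of 0.88. They did not have to pass the filter of a mean of at least 10. Of the gene-targeting guides, 514 had a living mean under 10 and were not at 0 in all libraries. Their changes had a 90th percentile of 2.70 and reached 6.90. The comparison is a description, since both guides passed the filter through the libraries in which they are high.

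Both rare guides passed the filter through the dead libraries alone, as the filter takes the mean over 5 libraries of which 3 were dead. With a filter of at least 10 on the living mean, neither entered, and the Ptcd1 value was −0.0343. The third rare guide, 33484, had 99.7, 35.4 and 23.2 normalised counts in the dead libraries against 86.3 and 51.2 in living ones, at −0.60 ± 0.71 (SE).

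The middle guides of Ptcd1 showed no common direction in their libraries. Guide 33481 had 189, 253 and 48.8 normalised counts in the dead libraries, against 89.4 and 78.6 in living ones. Guide 33480 had 180 in dead library a, 382 in b and 352 in c, against 198 and 298. Guide 33483 had 294, 539 and 538 against 373 and 463, and guide 33489 had 180, 614 and 287 against 358 and 352. In all 4 the groups overlapped and dead library b was the highest of the 5, while the changes lay between −0.16 and 0.66. Their median change was 0.17, beside −0.13 over the 190 control guides of like abundance. Guide 33481 entered this class through its dead counts, as its living mean was 84.0. By the living mean the class held 3 Ptcd1 guides with a median change of 0.0829, beside −0.126 over 193 control guides.

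The gene mean of Ptcd1 over its 8 tested guides was 7.53, 7.94 and 6.60 in dead libraries, against 6.38 and 6.34 in living ones. All dead libraries were above both living ones, as for 8.31% of the 915 genes. The change was 1.00 ± 0.41 (SE), a fold of 2.00 with a 95% interval from 0.997 to 3.998, and it was the 5th highest change among 915 genes, with an adjusted p of 0.522 by limma. The non-overlap and the rank include guides 33487 and 33488, which passed the filter through the dead libraries alone. Without guide 33487 the mean change was 0.51, and without both rare guides it was −0.0343. With a filter on the living mean, which drops both, Ptcd1 ranked 243 of 913 genes by change. By edgeR on summed reads, which follows the abundant guide 33482, the change was −0.30 (adjusted p = 0.282). Among the rare guides of Ptcd1, 33487 and 33488 were higher and 33484 was lower, as was the abundant 33482.

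At an adjusted p of 0.05, limma called 0 of the 915 genes (87 at an unadjusted p under 0.05) and edgeR also called 0 (175 unadjusted). Over single guides limma called 2 of 7248, or 0.0276%, and edgeR called 0 (856 unadjusted). The calls held 0 of the 23 tested guides of Nsun4 and Ptcd1. At an unadjusted p under 0.05, limma found 3 of the 23 guides, 148447, 33487 and 33488, and 570 of all guides (7.86%). At that threshold edgeR found 3 of the 23, 148447, 33487 and 148451, beside 856 of all 7248 guides. By edgeR guide 33488 had an unadjusted p of 0.0675. All dead libraries were above both living ones for 5 of the 23 guides, beside 15% of all tested guides, and below both for 1 of the 23, beside 17.7%. The 5 include guides 33487 and 33488, which passed the filter through the dead libraries alone. In dead library c, guide 33487 was also below the living floors of 3 reads, so the count of 5 is no result about the members.

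The spread among dead libraries was wide for rare guides of every kind. The 3 dead libraries spanned at least 2 log2 units for 2 of 2 Nsun4 guides and 3 of 3 Ptcd1 guides of 10 to under 100, and for 71.8% of the 110 tested control guides of that class. From 100 to under 1000 this held for 2 of 10 Nsun4 guides, both of ENSMUSG00000028706, for 1 of 4 Ptcd1 guides and for 16.3% of control guides. At 1000 and over it held for 0 of 3 Nsun4 guides, 0 of 1 Ptcd1 guides and 0% of 246 control guides. Guide 148447, at 1.995, was just above the highest of those controls, at 1.96. Of the 2733 gene-targeting guides of that class, 12 spanned at least 2 log2 units, the highest 2.89.

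In the authors' deposited guide table, 6 of the 30 guides had an FDR under 0.05 and a higher value in dead cells, beside 15.9% of all 10021 guides. These were 148447, 148451 and 148444 of Nsun4 and 33487, 33488 and 33481 of Ptcd1. Another 2 had such an FDR and a lower value, 58603 of Nsun4 and 33482 of Ptcd1, beside 15.5% of all guides. That table's FDR was also under 0.05 for 32.3% of the 750 control guides. The authors' deposited log2 fold change was 1.78 for guide 148447 and −0.46 for guide 33482, with the dead value taken as the median of 3 libraries, which gives dead library b less weight than the mean does. In the authors' deposited gene table, Ptcd1 was placed 99 of 925 entries for gain, with a log2 fold change of 0.434 and an FDR of 1, and 427 for loss. Nsun4, counted there with 18 guides under both identifiers, was placed 202 for gain, with a log2 fold change of 0.101 and an FDR of 1, and 857 for loss.

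Few other genes of the pathway were in the library. Of a list of factors of mitochondrial RNA processing, modification and translation, with all mitochondrial ribosomal proteins besides, 3 genes had guides, and 0 of the 3 passed. They were Nsun4, Ptcd1 and Eola1, the gene the study is about, which the table lists under an older symbol. Eola1 stood at 0.28 ± 0.21 (SE, limma adjusted p = 0.674). Of its 10 guides 5 were tested and 4 of these were higher, beside 43.6% of all tested gene-targeting guides. No subunit of the mitochondrial ribosome and no partner such as MTERF4 could be set beside Nsun4.

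By the distance between gene means over the 5 libraries, each centred on its own mean, Lca5 (0.345) and Heatr5b (0.512) were nearest to Nsun4, where the median gene was at 1.38. Lca5, a gene of the photoreceptor cilium, had 8 guides and a change of 0.22 ± 0.34 (SE), and Heatr5b had −0.03 ± 0.37. In both, as in Nsun4, dead library b was the highest. Nearest to Ptcd1 were 2310022B05Rik (0.603) and Nat9 (0.830), with the median gene at 1.77 and changes of 0.86 ± 0.31 and 0.77 ± 0.20 (SE). With 5 libraries such likeness is a description only.

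RNA of the kind these factors act on was counted in the other experiment of the series, an immunoprecipitation of RNA crosslinked to EOLA1 in HEK293T cells, a human embryonic kidney line, with 2 replicates. The 12S rRNA MT-RNR1, the substrate of NSUN4, took 33.4% of 114188 mitochondrial counts in replicate 1, with a 95% Wilson interval of 33.2 to 33.7. Replicate 2 gave 26.5% of 217229, with an interval of 26.3 to 26.7. The intervals cover counting error only, and the replicates differed by more. Among RNAs tied to PTCD1, the 16S rRNA MT-RNR2 took 43.9% and 41.0% over 32 bins. The leucine tRNAs held 47 and 98 counts in 1 bin for MT-TL1 and 130 and 384 in 2 bins for MT-TL2. Bins were 50 bases long and assigned by midpoint, so bins of a tRNA can also hold counts of neighbouring RNAs. Per bin, relative to the mean of all 332 bins, MT-RNR2 stood at 4.56 and 4.25. On that scale MT-TL1 stood at 0.137 and 0.150, and MT-TL2 at 0.189 and 0.293. No input was analysed here, so binding and abundance cannot be told apart, and the values bear on no guide in the mouse cells.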

How the data were processed

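The submitters' processing notes name Picard, STAR, Trim Galore and MAGeCK 0.5.9.5, and as builds GRCh38.p14 and GRCm39. Settings of the guide counting are not stated there. The authors' deposited guide table gives, per the file headers, normalised guide counts of 2 living and 3 dead libraries in 1 cell per group, 1 signal value per group (for dead cells the median in all 10021 rows), a log2 fold change, and a p-value and FDR. Guides at 0 in all libraries still have a log2 fold change of −0.70 in the deposited table. The deposited gene table holds ranks, p-values and log2 fold changes. The deposited immunoprecipitation tables hold counts in 332 bins, assigned here to RNAs by their midpoint on the human mitochondrial reference.

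Low values were whole multiples of 1 step in each library (100% within 0.1 read), which gave whole reads. Then log2(normalised count + 1) of guides with a mean of at least 10 was averaged per gene with at least 3 such guides and tested by limma 3.58.1 (2-sided, Benjamini-Hochberg over all genes or all guides, threshold 0.05). The 2-sided edgeR 4.0.16 quasi-likelihood test on whole reads was an alternative. The fits were tested on simulated data. The members, the gene list and the tests were chosen with earlier results of these data known. Guides were named singly if they had a gene's largest change up or down, were its most abundant, or were at 0 in all libraries of 1 group; the remaining guides are given to account for every member. Genes likest in pattern were the 2 nearest by distance, and every listed pathway gene with a guide was named. Grouping Nsun4 guides by identifier and the counts for dead library b were added after the data were seen.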

Additional observations from a re-analysis of the deposited data

How the results depend on the processing

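The call of 0 Nsun4 and Ptcd1 guides and of 0 genes in each direction was the same under all 18 alternatives. For Nsun4, 2 of 19 alternatives reversed the direction, the median over guides (−0.15) and leaving out dead library b, and leaving out 1 library in turn gave −0.21 to 0.52. For Ptcd1, guides with a mean of at least 50 and a filter on the living mean (−0.0343 each), edgeR (−0.30) and edgeR with dead library b left out (−0.39) reversed it, and leaving out 1 library gave 0.71 to 1.38. The first 2 of these remove both rare guides, and edgeR gives the abundant guide most weight. The set ENSMUSG00000028706 turned to −0.29 without dead library b (−0.29 to 1.06 leaving out 1 library), and ENSMUSG00000090697 to 0.11 with the median over guides. Scaling to equal totals put the median gene at −0.28 in place of −0.16, with Nsun4 at 0.12 and Ptcd1 at 0.89. Grouping by identifier, edgeR without dead library b, guide folds without 1 dead library, and leaving out the guide with the largest change (Nsun4 0.0862, Ptcd1 0.51) were chosen after seeing the data. By the mean over 5 libraries or the living mean as abundance, 0 of 243 and 0 of 246 control guides reached the change of guide 148447. Without each dead library in turn, its fold was 3.27 to 7.90. That of guide 33488 was 16.4 to 40.9 over its living mean of 1.41, which lay below the floor of 4.23 used for guide 33487. The folds of guides 33487 and 33488 are therefore not on a like base and cannot be compared. No paired analysis was possible because the library values carry no replicate number. Depth limits guide 33488, with 2 reads in living cells, and guide 33487, with 0.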
